A study of Mus musculus with 18 samples.

Results

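Enzymes of serine synthesis and of folate one-carbon metabolism were examined in the mouse cerebellum, with RNA and ribosome footprints side by side in 3 genotypes. The genes were listed by symbol: 3 enzymes that make serine (*Phgdh*, *Psat1*, *Psph*), 4 mitochondrial folate enzymes (*Shmt2*, *Mthfd2*, *Mthfd1l*, *Aldh1l2*) and 3 cytosolic folate enzymes (*Shmt1*, *Mthfd1*, *Aldh1l1*). All 10 were found among the 54752 genes of the RNA files and among the 22523 genes of the footprint files. The 10 genes had 69 of the 138835 transcripts in the RNA files.

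The study asked what the loss of the translational GTPases GTPBP1 or GTPBP2 does to gene expression in a brain with a mutated copy of the arginine tRNA gene *n-Tr20*. Cerebella were taken at 3 weeks of age from C57BL/6J mice (B6J), which served as wild type, from B6J.*Gtpbp1*-/- mice and from B6J-*Gtpbp2*-/- mice, with 3 RNA and 3 footprint libraries for each genotype. The *n-Tr20* mutation is part of the C57BL/6J background, so mice of all 3 genotypes carried it, the B6J controls included. B6J.*Gtpbp1*-/- mice carried an allele in which a neomycin cassette under the *Pgk* promoter takes the place of some coding exons, backcrossed to B6J, so that reads from the remaining exons can still be counted. B6J-*Gtpbp2*-/- mice carried the chemically induced point mutation *nmf205*, whose transcript can still give reads. Below, the mutants are called *Gtpbp1*-/- and *Gtpbp2*-/-.

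Cells build serine from a glycolytic intermediate in a short chain of reactions, and serine then gives a carbon unit to folate while it becomes glycine. Mitochondria and cytosol hold parallel sets of folate enzymes, and formate made from serine in mitochondria passes to the cytosol, where it feeds purine and thymidylate synthesis and the methyl cycle. In brain, serine is made mainly by astrocytes and by the Bergmann glia of the cerebellum, which supply neurons, and several genes of the pathway are known targets of the stress-induced transcription factor ATF4.

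*Phgdh* (chr3:98313170-98339990, GRCm38, minus strand) encodes the dehydrogenase of the first step of serine synthesis. *Psat1* (chr19:15904678-15947337, minus strand) encodes the aminotransferase of the next step, and *Psph* (chr5:129765558-129787449, minus strand) the phosphatase that releases serine. *Shmt2* (chr10:127517123-127522444, minus strand) encodes the mitochondrial serine hydroxymethyltransferase, which moves the carbon unit from serine to folate. *Mthfd2* (chr6:83305691-83325908, minus strand) encodes the mitochondrial dehydrogenase and cyclohydrolase that turns methylene-folate into formyl-folate. *Mthfd1l* (chr10:3973118-4167081, plus strand) encodes the mitochondrial synthetase that frees formate, and *Aldh1l2* (chr10:83487450-83534140, minus strand) the mitochondrial dehydrogenase that oxidizes formyl-folate to carbon dioxide while making NADPH. The cytosolic counterparts are *Shmt1* (chr11:60788104-60811718, minus strand), *Mthfd1* (chr12:76255298-76319803, plus strand), whose protein combines synthetase, cyclohydrolase and dehydrogenase activities, and *Aldh1l1* (chr6:90486427-90600203, plus strand), which is also used as a marker of astrocytes.

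RNA libraries held 49090501, 50301391 and 52114400 estimated counts in B6J replicates 1, 2 and 3. The totals were 44243134, 49294194 and 37794598 in *Gtpbp1*-/- and 46027009, 50878852 and 51979679 in *Gtpbp2*-/-. Footprint libraries were smaller and less even, with 4428395, 4489970 and 6523974 counts on coding sequences in B6J, 7054063, 8612441 and 5944024 in *Gtpbp1*-/- and 6281637, 3630823 and 10442573 in *Gtpbp2*-/-. Replicates were further apart than counting alone would give, as the smallest chi-square between 2 libraries of a group was 10.6 per gene. All RNA libraries were labelled batch 1 and all footprint libraries batch 2, so assay and batch cannot be told apart.

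The targeted genes were looked at first. *Gtpbp1* footprints were 73.6, 117 and 84.8 CPM (counts scaled to a common library size by TMM) in B6J, 32.0, 25.5 and 35.6 in *Gtpbp1*-/- and 79.3, 66.8 and 62.1 in *Gtpbp2*-/-. Its RNA was 70.9, 77.8 and 66.7 CPM in B6J, 44.0, 41.7 and 43.9 in *Gtpbp1*-/- and 58.6, 72.1 and 65.7 in *Gtpbp2*-/-. *Gtpbp1* was thus lowest in the 3 *Gtpbp1*-/- libraries of both assays, without reaching 0. *Gtpbp2* footprints were 44.7, 36.1 and 38.4 CPM in B6J, 36.2, 43.3 and 58.3 in *Gtpbp1*-/- and 28.9, 26.4 and 7.54 in *Gtpbp2*-/-. *Gtpbp2* RNA was 85.9, 74.0 and 88.1 CPM in B6J, 109, 100.45 and 104 in *Gtpbp1*-/- and 65.5, 75.4 and 72.7 in *Gtpbp2*-/-. The 3 *Gtpbp2*-/- libraries were the lowest in *Gtpbp2* footprints, while in RNA, where the level of a transcript with a point mutation does not check the label, they overlapped with B6J. *Atf4* RNA was 155, 190.4 and 197 TPM (transcripts scaled to a common sum after division by length) in B6J, 362, 373 and 413 in *Gtpbp1*-/- and 322, 396 and 364 in *Gtpbp2*-/-, with every mutant library above every B6J library.

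The tissue label was checked against marker genes. Markers of granule neurons, the main neuron of the cerebellum, summed to 4243, 4273 and 4293 TPM in B6J, and none of the 12 genes on the list was at 0. Markers of Purkinje cells, the output neurons of the cerebellar cortex, summed to 6440, 6745 and 5667 TPM in B6J, and none of 8 was at 0. The male-specific gene *Ddx3y* had 4663, 5455 and 6574 counts in B6J replicate 2 and *Gtpbp1*-/- replicates 1 and 2, and at most 26 in the other 6 RNA libraries, so the groups differed in sex.

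The comparison of each mutant with B6J asks which of these enzymes differ when either GTPase is missing. RNA of the 3 serine synthesis enzymes was higher in both mutants by 0.99 to 1.61 log2 units, and that of the 4 mitochondrial folate enzymes by 0.64 to 2.56. RNA of the 3 cytosolic folate enzymes lay between -0.33 and 0.34 log2 units of B6J. A gene was called at an adjusted p of at most 0.05 from the quasi-likelihood F test of edgeR, adjusted over all genes tested by the method of Benjamini and Hochberg. Both comparisons used the same 3 B6J libraries of an assay, so their values stand side by side and are not independent. Fewer cells of a type and less RNA per cell cannot be told apart in a whole cerebellum.

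In RNA, all 3 serine synthesis enzymes and all 4 mitochondrial folate enzymes rose in *Gtpbp1*-/-, so 7 of 10 members were called higher, against 5.90% of the 24577 genes tested. The same 7 members were called higher in *Gtpbp2*-/-, against 3.61% of 24859 genes. One cytosolic enzyme, *Aldh1l1*, was called lower in both comparisons (1 of 10 members), against 7.93% of genes in *Gtpbp1*-/- and 5.02% in *Gtpbp2*-/-. The median log2 fold change of the 10 members was 1.20 in *Gtpbp1*-/- and 1.06 in *Gtpbp2*-/-, while over all genes tested it was 0.03 in both. Of all calls, 42.6% were higher in *Gtpbp1*-/- and 41.8% in *Gtpbp2*-/-. With upper quartile normalization these shares were 54.9% and 53.3%, and with limma on log2(TPM + 0.5) they were 75.3% and 77.0%. On that TPM scale the median of all genes was itself shifted by 0.16 log2 units in *Gtpbp1*-/- and 0.15 in *Gtpbp2*-/-, so a TPM difference of a member stands on top of this shift. The number of calls among all genes moved by more than 1.5 times without single libraries: from 3398 to 1890 in *Gtpbp1*-/- without *Gtpbp1*-/- replicate 2, and from 2146 in *Gtpbp2*-/- to 1358 without *Gtpbp2*-/- replicate 2, 979 without *Gtpbp2*-/- replicate 3, 953 without B6J replicate 1 and 1069 without B6J replicate 2. The number of members called stayed at 7 or 8 in each of these.

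In footprints, 5 of 10 members were called higher in *Gtpbp1*-/-, against 0.573% of the 13956 genes tested, and 7 of 10 in *Gtpbp2*-/-, against 1.28% of 13797 genes. No member was called lower in either comparison, against 0.172% of genes in *Gtpbp1*-/- and 1.67% in *Gtpbp2*-/-. Of all genes tested in *Gtpbp2*-/-, 176 were called higher and 230 lower. The median log2 fold change of the members was 1.07 in *Gtpbp1*-/- and 1.06 in *Gtpbp2*-/-, and over all genes tested it was 0.01 in both comparisons. The 5 members called in *Gtpbp1*-/- were *Psat1*, *Psph*, *Shmt2*, *Mthfd2* and *Aldh1l2*, and *Phgdh* and *Mthfd1l* were called besides these in *Gtpbp2*-/-. Without B6J replicate 1, the number of members called was 2 in *Gtpbp1*-/- and 4 in *Gtpbp2*-/-, and without B6J replicate 2 it was 4 in *Gtpbp2*-/-. Of all footprint calls in *Gtpbp1*-/-, 76.9% were higher with edgeR and 61.8% with DESeq2, and without B6J replicate 3 the share with edgeR was 47.8%. The number of calls among all genes rested on single libraries as well. It was 104 in *Gtpbp1*-/-, and it was 37 without *Gtpbp1*-/- replicate 1, 182 without *Gtpbp1*-/- replicate 3, 22 without B6J replicate 1, 41 without B6J replicate 2 and 186 without B6J replicate 3. It was 406 in *Gtpbp2*-/-, and it was 106 without *Gtpbp2*-/- replicate 1, 151 without *Gtpbp2*-/- replicate 2, 186 without B6J replicate 2 and 619 without B6J replicate 3.

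**Figure D1:**
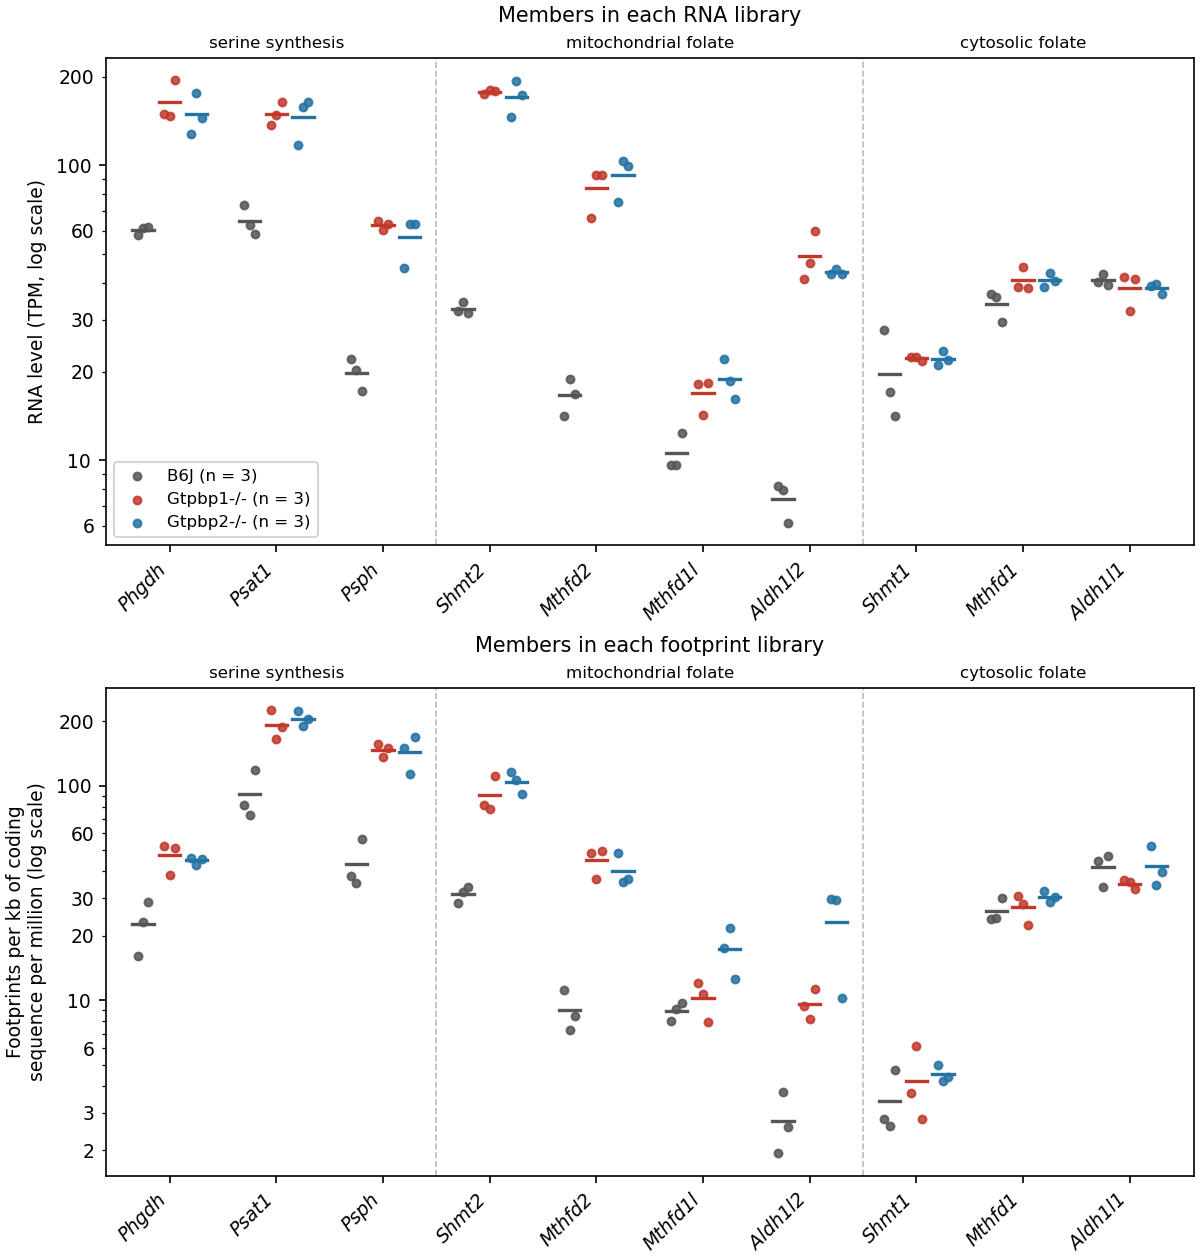
Each point is 1 library, with the level per length on a log axis (top, RNA in TPM; bottom, footprint CPM per kb of coding sequence) for B6J, *Gtpbp1*-/- and *Gtpbp2*-/- (n = 3 each), and the bars are means. In RNA the serine synthesis and mitochondrial folate enzymes had every mutant library above every B6J library (in CPM, 16.0% of all genes tested did so in *Gtpbp1*-/- and 14.5% in *Gtpbp2*-/-), whereas *Shmt1* and *Aldh1l1* overlapped.

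Serine synthesis begins with *Phgdh*, whose product takes phosphoglycerate out of glycolysis. *Phgdh* RNA was 58.3, 61.4 and 62.0 TPM in B6J, 149, 147 and 195 in *Gtpbp1*-/- and 128, 176 and 145 in *Gtpbp2*-/-. Every mutant library was above the 3 B6J libraries, which lay close together, and the mutants overlapped with each other. The log2 fold change was 1.35 (SE 0.0844, edgeR adjusted p = 4.3e-07) in *Gtpbp1*-/- and 1.13 (SE 0.124, edgeR adjusted p = 0.000397) in *Gtpbp2*-/-. Its footprints were 26.6, 38.3 and 47.5 CPM in B6J, 86.3, 63.5 and 85.0 in *Gtpbp1*-/- and 76.2, 70.6 and 75.6 in *Gtpbp2*-/-. Here too the mutant libraries were all above B6J, but the B6J libraries were spread out. Footprints of *Phgdh* were called in *Gtpbp2*-/- (log2 fold change 0.97, SE 0.204, edgeR adjusted p = 0.0182) and not in *Gtpbp1*-/- (1.06, SE 0.237, edgeR adjusted p = 0.064). The call in *Gtpbp2*-/- was lost without *Gtpbp2*-/- replicate 1 (edgeR adjusted p = 0.0956), *Gtpbp2*-/- replicate 2 (0.0621), B6J replicate 1 (0.0802) or B6J replicate 2 (0.0588), with a range of 0.00128 to 0.0956 over 12 alternatives. The test was passed in *Gtpbp1*-/- without B6J replicate 3 (edgeR adjusted p = 0.0446), with DESeq2 (0.00428), with no filter on low counts (0.0215) and with all 9 libraries in one model (0.0256), and the range over 12 alternatives was 0.00428 to 0.262.

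*Psat1*, whose product moves an amino group from glutamate onto the carbon chain, had the highest mean RNA of the 3 in B6J on the TPM scale, though not beyond the spread of *Phgdh*. Its RNA was 73.4, 63.0 and 58.7 TPM in B6J, 137, 148 and 165 in *Gtpbp1*-/- and 117, 158 and 164 in *Gtpbp2*-/-. All mutant libraries were above all B6J libraries. *Psat1* rose by a log2 fold change of 1.06 (SE 0.0907, edgeR adjusted p = 7.33e-06) in *Gtpbp1*-/- and 0.99 (SE 0.127, edgeR adjusted p = 0.00117) in *Gtpbp2*-/-. Footprints were 94.4, 85.2 and 138 CPM in B6J, 261, 193 and 218 in *Gtpbp1*-/- and 258, 220.2 and 237 in *Gtpbp2*-/-. B6J replicate 3 was the highest of its group and still under every mutant library. The footprint log2 fold change was 1.08 (SE 0.216, edgeR adjusted p = 0.04) in *Gtpbp1*-/- and 1.16 (SE 0.184, edgeR adjusted p = 0.00378) in *Gtpbp2*-/-. The call in *Gtpbp1*-/- was lost with a replicate block (edgeR adjusted p = 0.105) and without *Gtpbp1*-/- replicate 1 (0.154), B6J replicate 1 (0.208) or B6J replicate 2 (0.169), the range over 12 alternatives being 0.00067 to 0.208, while that in *Gtpbp2*-/- held in all 12.

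*Psph*, the phosphatase of the last step, had less RNA than the other members of the chain. It stood at 22.0, 20.3 and 17.2 TPM in B6J, 64.8, 60.3 and 63.1 in *Gtpbp1*-/- and 44.8, 63.3 and 63.1 in *Gtpbp2*-/-. The mutants were above B6J without overlap, and *Gtpbp2*-/- replicate 1 was the lowest mutant library. The log2 fold change was 1.61 (SE 0.109, edgeR adjusted p = 9.4e-07) in *Gtpbp1*-/- and 1.48 (SE 0.157, edgeR adjusted p = 0.000294) in *Gtpbp2*-/-. *Psph* footprints were 25.7, 23.8 and 38 CPM in B6J, 105, 91.9 and 101 in *Gtpbp1*-/- and 101, 77.0 and 114 in *Gtpbp2*-/-. Again no mutant library overlapped with B6J. Footprints rose by a log2 fold change of 1.77 (SE 0.218, edgeR adjusted p = 0.00253) in *Gtpbp1*-/- and 1.73 (SE 0.216, edgeR adjusted p = 0.000773) in *Gtpbp2*-/-, and both calls held in all 12 alternatives.

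Among the mitochondrial folate enzymes, *Shmt2* opens the pathway by taking the carbon unit from serine. Its RNA was 32.1, 34.4 and 31.5 TPM in B6J, 174, 180.3 and 179 in *Gtpbp1*-/- and 146, 194 and 173 in *Gtpbp2*-/-. The lowest mutant library was thus far above the highest B6J library, and *Gtpbp1*-/- lay within the spread of *Gtpbp2*-/-. *Shmt2* rose by a log2 fold change of 2.14 (SE 0.0737, edgeR adjusted p = 3.62e-09) in *Gtpbp1*-/- and 2.1 (SE 0.105, edgeR adjusted p = 1.65e-06) in *Gtpbp2*-/-. Its footprints were 43.2, 48.4 and 50.8 CPM in B6J, 123, 118 and 168 in *Gtpbp1*-/- and 175, 160.3 and 138 in *Gtpbp2*-/-. The mutants were again above B6J in every library. The footprint log2 fold change was 1.52 (SE 0.201, edgeR adjusted p = 0.00409) in *Gtpbp1*-/- and 1.72 (SE 0.166, edgeR adjusted p = 6.25e-05) in *Gtpbp2*-/-. Without B6J replicate 1 the footprint call in *Gtpbp1*-/- was lost (edgeR adjusted p = 0.0524, the highest of a range that began at 7.87e-09 over 12 alternatives), while that in *Gtpbp2*-/- held in all 12.

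*Mthfd2*, which carries the mitochondrial route on to formyl-folate, had 14.2, 18.9 and 16.8 TPM in B6J, 66.4, 92.7 and 93.0 in *Gtpbp1*-/- and 75.0, 104 and 99.5 in *Gtpbp2*-/-. Replicate 1 was the lowest library of each mutant, and it still exceeded every B6J library. The log2 fold change in RNA was 2.44 (SE 0.134, edgeR adjusted p = 2.05e-07) in *Gtpbp1*-/- and 2.56 (SE 0.159, edgeR adjusted p = 1.36e-05) in *Gtpbp2*-/-. *Mthfd2* footprints were 13.2, 8.59 and 10.006 CPM in B6J, 57.2, 43.5 and 58.4 in *Gtpbp1*-/- and 57.0, 41.8 and 43.4 in *Gtpbp2*-/-. No mutant library came near B6J. Footprints rose by a log2 fold change of 2.32 (SE 0.242, edgeR adjusted p = 0.000848) in *Gtpbp1*-/- and 2.15 (SE 0.234, edgeR adjusted p = 0.000226) in *Gtpbp2*-/-, and both calls held in all 12 alternatives.

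*Mthfd1l*, the synthetase that frees formate, had the smallest RNA fold changes of the 4 mitochondrial enzymes. Its RNA was 9.62, 9.67 and 12.4 TPM in B6J, 18.1, 14.3 and 18.3 in *Gtpbp1*-/- and 22.1, 18.5 and 16.1 in *Gtpbp2*-/-. The mutant libraries were above B6J, with *Gtpbp1*-/- replicate 2 closest to it. The RNA log2 fold change was 0.64 (SE 0.110, edgeR adjusted p = 0.00181) in *Gtpbp1*-/- and 0.73 (SE 0.104, edgeR adjusted p = 0.00155) in *Gtpbp2*-/-. With limma on TPM neither comparison passed (adjusted p = 0.0524 in *Gtpbp1*-/- and 0.051 in *Gtpbp2*-/-), and in *Gtpbp1*-/- the edgeR call was also lost with an offset for effective transcript length (adjusted p = 0.0571). Over 16 alternatives to the edgeR fit, adjusted p ranged from 1.18e-06 to 0.0571 in *Gtpbp1*-/- and from 2.16e-08 to 0.051 in *Gtpbp2*-/-. Footprints of *Mthfd1l* were 23.5, 26.9 and 28.4 CPM in B6J, 35.3, 31.6 and 23.4 in *Gtpbp1*-/- and 51.5, 63.8 and 36.8 in *Gtpbp2*-/-. In *Gtpbp1*-/-, replicate 3 was at the level of the lowest B6J library and the other libraries were above B6J, whereas all 3 *Gtpbp2*-/- libraries were above B6J. Footprints were called in *Gtpbp2*-/- (log2 fold change 0.93, SE 0.218, edgeR adjusted p = 0.0333) and not in *Gtpbp1*-/- (0.20, SE 0.225, edgeR adjusted p = 0.788). The call in *Gtpbp2*-/- was lost with all 9 libraries in one model (edgeR adjusted p = 0.0534) and without *Gtpbp2*-/- replicate 1 (0.142), *Gtpbp2*-/- replicate 2 (0.162), B6J replicate 1 (0.129) or B6J replicate 2 (0.0942), with a range of 0.0072 to 0.162 over 12 alternatives.

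*Aldh1l2*, the mitochondrial dehydrogenase that burns formyl units, was the least abundant member in B6J in TPM. Its RNA was 8.18, 7.96 and 6.12 TPM in B6J, 41.1, 46.8 and 60.0 in *Gtpbp1*-/- and 42.7, 44.6 and 42.8 in *Gtpbp2*-/-. All mutant libraries stood well above B6J, and the 3 *Gtpbp2*-/- libraries were nearly equal. *Aldh1l2* RNA rose by a log2 fold change of 2.47 (SE 0.199, edgeR adjusted p = 0.00019) in *Gtpbp1*-/- and 2.43 (SE 0.151, edgeR adjusted p = 1.81e-05) in *Gtpbp2*-/-. Its footprints were 5.37, 10.3 and 7.15 CPM in B6J, 26.1, 22.7 and 31.4 in *Gtpbp1*-/- and 82.0, 81.6 and 28.5 in *Gtpbp2*-/-. Both mutants were above B6J, and within *Gtpbp2*-/-, replicate 3 was much lower than the other libraries and level with *Gtpbp1*-/-. Footprints rose by a log2 fold change of 1.81 (SE 0.293, edgeR adjusted p = 0.0141) in *Gtpbp1*-/- and 3.05 (SE 0.456, edgeR adjusted p = 0.012) in *Gtpbp2*-/-. Counts were few here, at 24 to 47 footprints per B6J library. In *Gtpbp1*-/- the call was lost with a replicate block (log2 fold change 1.84, edgeR adjusted p = 0.055) and without B6J replicate 1 (1.62, edgeR adjusted p = 0.1), the range over 12 alternatives being 6.49e-06 to 0.1. In *Gtpbp2*-/- it was lost without B6J replicate 1 (edgeR adjusted p = 0.0511), 2 (0.107) or 3 (0.0684), the range being 3.74e-14 to 0.107. The log2 fold change in *Gtpbp2*-/- was then 2.86, 3.31 and 3, and why the call was lost was not tested.

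The RNA calls of *Phgdh*, *Psat1*, *Psph*, *Shmt2*, *Mthfd2* and *Aldh1l2* held in both mutants under each of the 16 alternatives, which included other normalizations, scales and tools and the removal of each library.

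**Figure D2:**
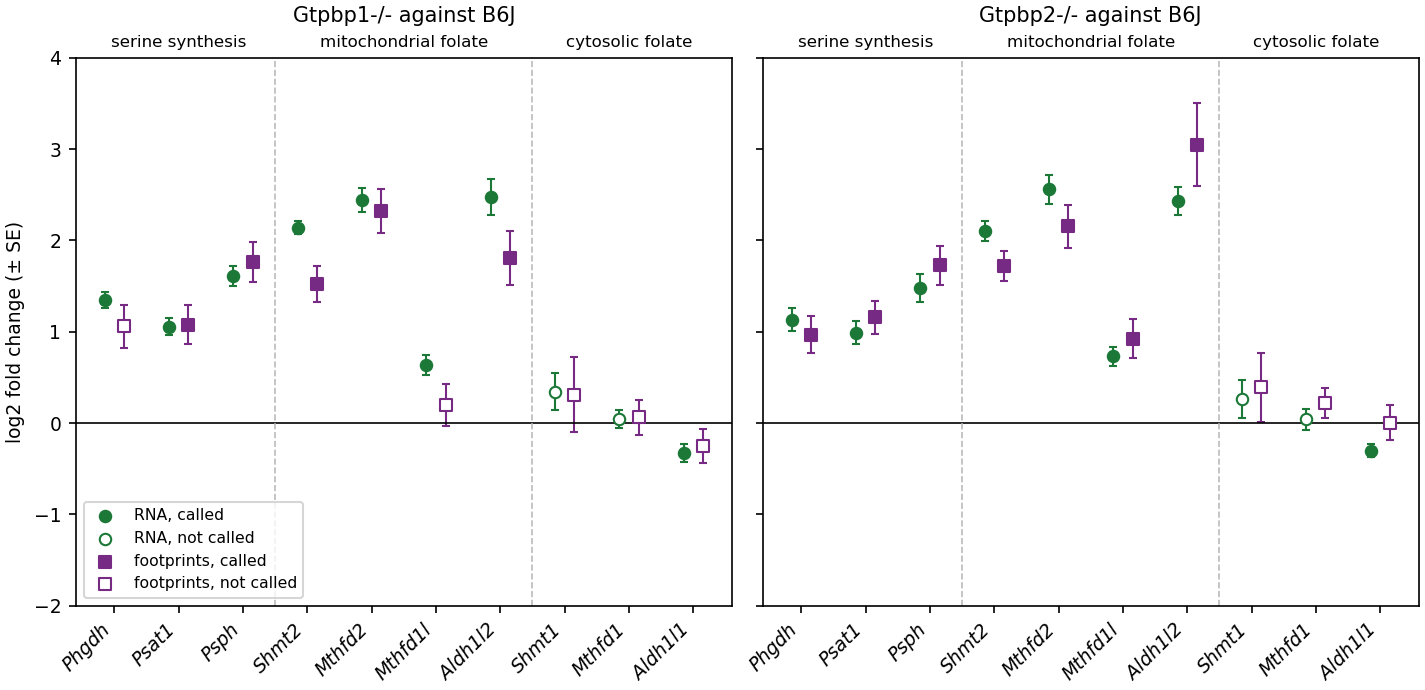
The vertical axis gives the log2 fold change against B6J with its SE for each member (left, *Gtpbp1*-/-; right, *Gtpbp2*-/-; n = 3 libraries per genotype and assay), circles for RNA and squares for footprints, filled where edgeR's adjusted p was at most 0.05. Serine synthesis and mitochondrial folate enzymes were above 0 in both assays, and the cytosolic enzymes lay around 0, with *Aldh1l1* RNA at -0.33 and -0.30.

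The cytosolic counterparts showed smaller differences. *Shmt1* RNA was 27.6, 17.1 and 14.2 TPM in B6J, 22.5, 22.4 and 21.8 in *Gtpbp1*-/- and 21, 23.5 and 22.0 in *Gtpbp2*-/-. On this scale the mutant libraries lay inside the wide spread of B6J. In CPM, *Shmt1* was 8.103, 7.795 and 4.95 in B6J, 8.111, 8.111 and 10.2 in *Gtpbp1*-/- and 7.66, 9.34 and 7.97 in *Gtpbp2*-/-, so that *Gtpbp1*-/- lay above B6J by a narrow margin and *Gtpbp2*-/- overlapped. The log2 fold change was 0.34 (SE 0.200, edgeR adjusted p = 0.314) in *Gtpbp1*-/- and 0.26 (SE 0.206, edgeR adjusted p = 0.52) in *Gtpbp2*-/-. *Shmt1* footprints were 4.03, 3.74 and 6.83 CPM in B6J, 5.33, 8.84 and 4.01 in *Gtpbp1*-/- and 7.18, 6.05 and 6.28 in *Gtpbp2*-/-. The groups overlapped, and at 17 to 77 counts per library the footprint log2 fold changes of 0.31 (SE 0.411, edgeR adjusted p = 0.818) in *Gtpbp1*-/- and 0.39 (SE 0.375, edgeR adjusted p = 0.653) in *Gtpbp2*-/- were not called. Without *Gtpbp1*-/- replicate 2 the former was -0.05.

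*Mthfd1* RNA, from the gene of the cytosolic enzyme with 3 activities, was 36.7, 35.8 and 29.6 TPM in B6J, 38.7, 45.3 and 38.4 in *Gtpbp1*-/- and 38.8, 43.3 and 40.6 in *Gtpbp2*-/-. On this scale the mutants were just above B6J, while in CPM (51.7, 55.6 and 42.6 in B6J, 51.0, 51.3 and 52.1 in *Gtpbp1*-/-, 44.7, 55.6 and 53.8 in *Gtpbp2*-/-) the groups overlapped. The log2 fold change was 0.04 (SE 0.0970, edgeR adjusted p = 0.837) in *Gtpbp1*-/- and 0.04 (SE 0.115, edgeR adjusted p = 0.889) in *Gtpbp2*-/-. Its sign turned without B6J replicate 3 (-0.06 in both mutants) and, in *Gtpbp2*-/-, without *Gtpbp2*-/- replicate 2 (-0.02). *Mthfd1* footprints were 67.3, 67.6 and 83.9 CPM in B6J, 86.0, 79.1 and 63.1 in *Gtpbp1*-/- and 90.3, 80.5 and 85.5 in *Gtpbp2*-/-. The groups overlapped, with log2 fold changes of 0.06 (SE 0.195, edgeR adjusted p = 0.937) in *Gtpbp1*-/- and 0.22 (SE 0.163, edgeR adjusted p = 0.549) in *Gtpbp2*-/-. Without *Gtpbp1*-/- replicate 1 the value in *Gtpbp1*-/- was -0.03.

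*Aldh1l1*, the cytosolic dehydrogenase, was the one member called lower in RNA. It had 77.0, 77.3 and 73.2 CPM in B6J, 69.2, 51.7 and 59.9 in *Gtpbp1*-/- and 64.5, 61.0 and 59.1 in *Gtpbp2*-/-, so every mutant library was below B6J. In TPM, however, the groups overlapped, at 40.3, 42.8 and 39.4 in B6J, 41.9, 32.2 and 41.1 in *Gtpbp1*-/- and 39.0, 39.7 and 36.6 in *Gtpbp2*-/-. The log2 fold change was -0.33 (SE 0.0979, edgeR adjusted p = 0.0388) in *Gtpbp1*-/- and -0.30 (SE 0.0761, edgeR adjusted p = 0.0322) in *Gtpbp2*-/-. This call was lost in 10 of 16 alternatives in each comparison, among them upper quartile normalization (edgeR adjusted p = 0.0735 in *Gtpbp1*-/- and 0.0601 in *Gtpbp2*-/-) and limma on TPM (0.638 and 0.555), over ranges of 0.00317 to 0.638 and 0.00621 to 0.555. In *Gtpbp1*-/- the call was also lost without *Gtpbp1*-/- replicate 2 (edgeR adjusted p = 0.187), *Gtpbp1*-/- replicate 3 (0.0944), B6J replicate 1 (0.118) or B6J replicate 2 (0.112). The log2 fold change was -0.233 without *Gtpbp1*-/- replicate 2, and -0.330, -0.325 and -0.322 without the others in turn. The call in *Gtpbp2*-/- was lost without *Gtpbp2*-/- replicate 2 (edgeR adjusted p = 0.101), *Gtpbp2*-/- replicate 3 (0.138), B6J replicate 1 (0.117) or B6J replicate 2 (0.0997). The log2 fold change was then -0.298, -0.271, -0.29 and -0.29 in turn. *Aldh1l1* footprints were 121, 90.9 and 127 CPM in B6J, 98.1, 96.8 and 89.3 in *Gtpbp1*-/- and 142, 93.2 and 107 in *Gtpbp2*-/-. These overlapped, with log2 fold changes of -0.26 (SE 0.187, edgeR adjusted p = 0.623) in *Gtpbp1*-/- and 0.0046 (SE 0.189, edgeR adjusted p = 0.995) in *Gtpbp2*-/-. The value in *Gtpbp2*-/- was -0.19 without *Gtpbp2*-/- replicate 1 and -0.13 without B6J replicate 2.

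Mitochondrial and cytosolic enzymes were then set against each other per length. The summed TPM of the 4 mitochondrial enzymes was 64.0, 71.0 and 66.9 in B6J, 299.9, 334 and 351 in *Gtpbp1*-/- and 286, 361 and 331 in *Gtpbp2*-/-. The sum of the 3 cytosolic enzymes was 105, 95.7 and 83.1 TPM in B6J, 103, 99.98 and 101 in *Gtpbp1*-/- and 98.8, 106 and 99.1 in *Gtpbp2*-/-. The mitochondrial sum was thus higher in every mutant library, and the cytosolic sums overlapped. The mitochondrial sum divided by the cytosolic sum was 0.612, 0.742 and 0.805 in B6J, 2.91, 3.34 and 3.46 in *Gtpbp1*-/- and 2.89, 3.39 and 3.34 in *Gtpbp2*-/-. RNA of the cytosolic enzymes exceeded that of the mitochondrial enzymes in each B6J library, and the order was the opposite in each mutant library. In footprint CPM per kb of coding sequence, the ratio was 0.694, 0.866 and 0.666 in B6J, 2.14, 1.91 and 3.09 in *Gtpbp1*-/- and 2.36, 2.86 and 2.03 in *Gtpbp2*-/-. The same change of order was seen there. Since the members were chosen with earlier results known, these ratios are a description and were not tested.

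Single pairs differed in how far they moved. *Shmt2* over *Shmt1* in TPM was 1.16, 2.02 and 2.22 in B6J, 7.77, 8.04 and 8.23 in *Gtpbp1*-/- and 6.94, 8.26 and 7.86 in *Gtpbp2*-/-. *Aldh1l2* over *Aldh1l1* was 0.203, 0.186 and 0.155 in B6J, 0.981, 1.45 and 1.46 in *Gtpbp1*-/- and 1.10, 1.12 and 1.17 in *Gtpbp2*-/-. Neither pair overlapped between B6J and the mutants. *Mthfd1l* over *Mthfd1* was 0.262, 0.270 and 0.42 in B6J, 0.468, 0.316 and 0.476 in *Gtpbp1*-/- and 0.571, 0.428 and 0.397 in *Gtpbp2*-/-, and on this scale B6J replicate 3 was within the range of both mutants. In TPM of protein-coding transcripts this pair did not overlap, at 0.327, 0.313 and 0.416 in B6J, 0.556, 0.438 and 0.562 in *Gtpbp1*-/- and 0.681, 0.515 and 0.467 in *Gtpbp2*-/-, nor did it in CPM, where every mutant library was above B6J. In footprint CPM per kb, *Mthfd1l* over *Mthfd1* was 0.334, 0.380 and 0.324 in B6J, 0.393, 0.382 and 0.354 in *Gtpbp1*-/- and 0.546, 0.758 and 0.412 in *Gtpbp2*-/-, so that *Gtpbp1*-/- overlapped with B6J and *Gtpbp2*-/- did not. *Aldh1l2* over *Aldh1l1* in footprints was 0.0433, 0.111 and 0.0549 in B6J, 0.260, 0.230 and 0.344 in *Gtpbp1*-/- and 0.563, 0.856 and 0.260 in *Gtpbp2*-/-. Every mutant library was above B6J for this pair, and *Gtpbp2*-/- replicate 3 was as low as *Gtpbp1*-/-. *Shmt2* over *Shmt1* in footprints was 10.2, 12.3 and 7.06 in B6J, 21.8, 12.7 and 39.9 in *Gtpbp1*-/- and 23.1, 25.1 and 20.9 in *Gtpbp2*-/-, a ratio that rests on the few footprints of *Shmt1*.

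**Figure D3:**
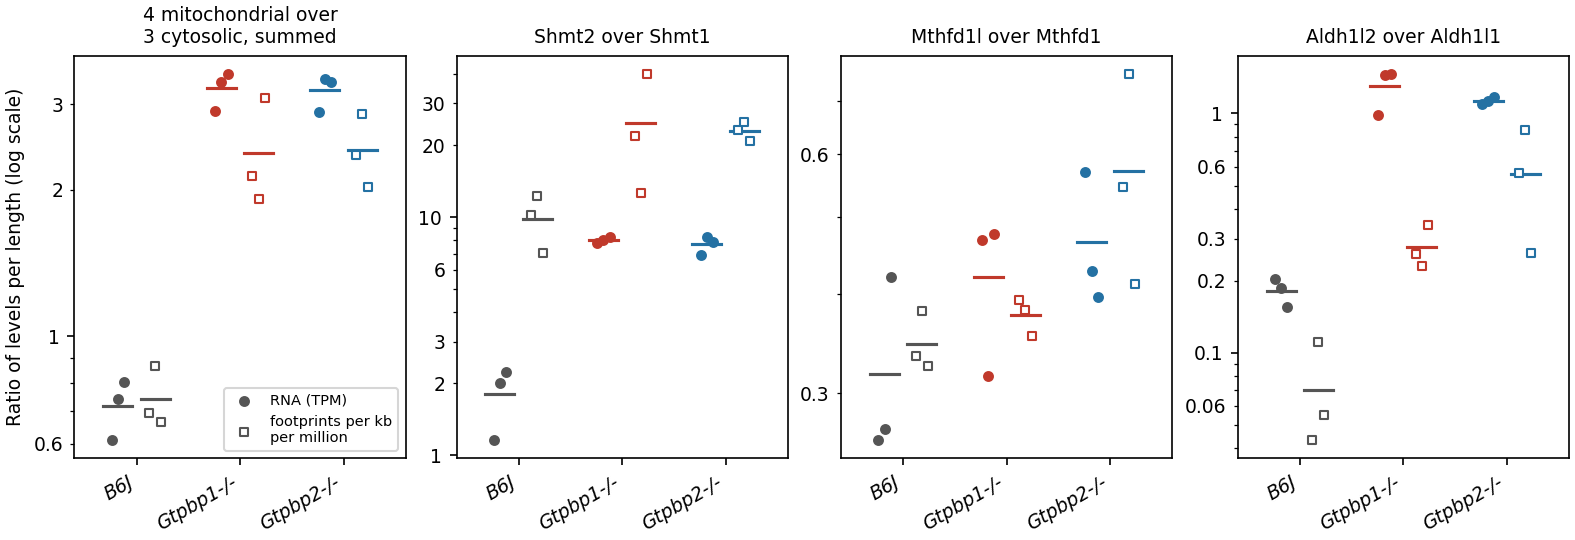
Each point is the ratio in 1 library on a log axis, for the summed enzymes and for each pair of mitochondrial and cytosolic counterparts, filled circles for RNA in TPM and open squares for footprint CPM per kb of coding sequence, with bars for the mean of 3 libraries. The summed ratio lay between 0.612 and 0.866 in B6J and between 1.91 and 3.46 in the mutants, while *Mthfd1l* over *Mthfd1* in TPM of all transcripts overlapped.

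The order of the members by RNA level differed between genotypes. In B6J, *Psat1* (65.0 TPM on average) and *Phgdh* (60.5) came first and did not differ beyond their spread, followed by *Aldh1l1* (40.8). *Mthfd1* (34.0) and *Shmt2* (32.7) came next and overlapped, as did *Psph* (19.8), *Shmt1* (19.6) and *Mthfd2* (16.6). *Mthfd1l* (10.6 TPM) and *Aldh1l2* (7.42) were the lowest and were separate from each other. In *Gtpbp1*-/-, *Shmt2* (178 TPM), *Phgdh* (164) and *Psat1* (149.9) led the order, and neighbours among them overlapped. *Mthfd2* (84.0 TPM) and *Psph* (62.7) followed, each apart from its neighbours, then *Aldh1l2* (49.3), *Mthfd1* (40.8) and *Aldh1l1* (38.4), which overlapped in turn. *Shmt1* (22.2 TPM) and *Mthfd1l* (16.9) closed the order without overlap. The order was the same in *Gtpbp2*-/-, from *Shmt2* (171 TPM) to *Mthfd1l* (18.9), except that *Shmt1* (22.1) and *Mthfd1l* overlapped.

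In footprint CPM per kb of coding sequence, *Psat1* led in every genotype, at 91.2 in B6J, 193 in *Gtpbp1*-/- and 205 in *Gtpbp2*-/-. In B6J, *Psph* (43.2), *Aldh1l1* (41.8), *Shmt2* (31.4), *Mthfd1* (26.0) and *Phgdh* (22.7) followed, and each overlapped with the next. *Mthfd2* (9.0) and *Mthfd1l* (8.96) overlapped below these, and *Shmt1* (3.39) and *Aldh1l2* (2.75) overlapped at the bottom. In *Gtpbp1*-/-, *Psph* (147) and *Shmt2* (90.2) stood apart from their neighbours behind *Psat1*, and *Phgdh* (47.4) and *Mthfd2* (45.1) overlapped. In *Gtpbp2*-/-, *Psph* (144) and *Shmt2* (104) overlapped, and *Aldh1l2* (23.1, SD 11.1) overlapped with both *Mthfd1* (30.5) and *Mthfd1l* (17.3). *Shmt1* was last in both mutants, at 4.23 and 4.54.

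Translational efficiency (TE), the footprints of a gene relative to its RNA, was tested as the interaction of assay and genotype in one edgeR model for each mutant. No member was called in either mutant by edgeR, against 0% of the 13086 genes tested in *Gtpbp1*-/- (0 genes called) and 0.00773% of the 12931 genes in *Gtpbp2*-/- (1 gene). At an unadjusted p under 0.05, 1 member (*Shmt2*) and 1170 genes in all were counted in *Gtpbp1*-/-, and 0 members and 1550 genes in *Gtpbp2*-/-. DESeq2 called 58 and 160 genes, and none of the members. *Shmt2* had a log2 TE change of -0.61 (SE 0.202, edgeR adjusted p = 0.477) in *Gtpbp1*-/- and -0.38 (SE 0.181, edgeR adjusted p = 0.421) in *Gtpbp2*-/-, as its footprint fold change was smaller than its RNA fold change. *Aldh1l2* had -0.66 (SE 0.330, edgeR adjusted p = 0.582) in *Gtpbp1*-/- and 0.61 (SE 0.511, edgeR adjusted p = 0.667) in *Gtpbp2*-/-. The other 8 members lay between -0.44 (*Mthfd1l*) and 0.16 (*Psph*) in *Gtpbp1*-/- and between -0.40 (*Mthfd2*) and 0.31 (*Aldh1l1*) in *Gtpbp2*-/-. The medians of the 10 members were -0.07 and 0.18, and those of all genes 0.03 and 0.03. Without B6J replicate 3, edgeR called 18 genes in *Gtpbp1*-/- and 42 in *Gtpbp2*-/-, again with no member among them, and in *Gtpbp2*-/- it called 0 without B6J replicate 1 or 2 or *Gtpbp2*-/- replicate 1 or 2. The 1 call in *Gtpbp2*-/- was lower, while without *Gtpbp2*-/- replicate 3 there were 2 calls, both higher.

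The mutants were also compared with each other. In RNA, edgeR called no member, against 0.0595% of 25190 genes (15 called, 899 at an unadjusted p under 0.05, 46 with DESeq2), and no member had an unadjusted p under 0.05 or was called by DESeq2. The 10 members lay between -0.12 (*Mthfd2*) and 0.21 (*Phgdh*) in log2 fold change of *Gtpbp1*-/- over *Gtpbp2*-/-. In footprints, edgeR called none of the 10 members, against 0% of 14142 genes (0 called, 1523 at an unadjusted p under 0.05, 100 with DESeq2), and 2 members had an unadjusted p under 0.05. These were *Aldh1l2* (-1.25, SE 0.35, edgeR adjusted p = 0.291) and *Mthfd1l* (-0.74, SE 0.238, edgeR adjusted p = 0.342), both with fewer footprints in *Gtpbp1*-/-. *Aldh1l2* was called with DESeq2 (adjusted p = 0.0325) and, with edgeR, without *Gtpbp2*-/- replicate 3 (adjusted p = 0.0275), when 33 genes were called in all, and adjusted p ranged from 0.0275 to 0.835 over 12 alternatives. The other 8 members lay between -0.27 (*Aldh1l1*) and 0.16 (*Mthfd2*).

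Gene sums can hide a change among transcripts, so the share of TPM in protein-coding transcripts was followed. For *Shmt2* this share was 68.6%, 67.3% and 67.7% in B6J, 61.9%, 54.5% and 61.6% in *Gtpbp1*-/- and 59.6%, 61.2% and 57.6% in *Gtpbp2*-/-. It was lower in every mutant library, and the share of its transcripts with a retained intron was higher, at 19.7%, 16.3% and 21.9% in B6J, 24.4%, 30.1% and 26.5% in *Gtpbp1*-/- and 25.8%, 25.4% and 29.4% in *Gtpbp2*-/-. *Mthfd1* transcripts with a retained intron held 3.56%, 1.96% and 0% in B6J, 3.61%, 9.16% and 9.41% in *Gtpbp1*-/- and 11.1%, 9.11% and 11.1% in *Gtpbp2*-/-, more in every mutant library, and those of *Phgdh* held 3.89%, 1.74% and 1.94% in B6J, 4.40%, 4.08% and 3.56% in *Gtpbp1*-/-, which overlapped, and 5.65%, 5.53% and 6.89% in *Gtpbp2*-/-, which did not. *Shmt1* was unlike the others in that transcripts with a retained intron held 88.5%, 70.0% and 86.0% of its TPM in B6J, and 69.8% to 80.2% in the mutants. Counted over protein-coding transcripts alone, *Shmt2* over *Shmt1* was 7.22, 6.51 and 10.7 in B6J, 25.1, 23.8 and 17.3 in *Gtpbp1*-/- and 24.5, 22.1 and 22.8 in *Gtpbp2*-/-, a higher ratio in every library than with all transcripts. For *Phgdh*, protein-coding transcripts held 97.5 ± 1.19% of TPM in B6J, 96.0 ± 0.424% in *Gtpbp1*-/- and 94.0 ± 0.754% in *Gtpbp2*-/- (SD, n = 3). For *Mthfd2* they held 64.8 ± 12.8%, 72.9 ± 4.84% and 67.9 ± 5.43%, which overlapped. *Aldh1l2* had 72.7 ± 1.11%, 65.9 ± 0.451% and 72.4 ± 6.29%, *Aldh1l1* 89.3 ± 1.16%, 85.2 ± 4.76% and 84.9 ± 1.73%, and *Mthfd1* 80.6 ± 5.54%, 79.6 ± 6.71% and 79.3 ± 6.41%. The share was below every B6J library in *Gtpbp1*-/- for *Aldh1l2* and in *Gtpbp2*-/- for *Aldh1l1* and *Phgdh*, and overlapped otherwise. Transcripts of *Psph* with a retained intron went the other way in *Gtpbp1*-/-. They held 21.02%, 2.559% and 13.52% in B6J and 2.547%, 2.383% and 2.346% in *Gtpbp1*-/-, narrowly below B6J replicate 2. In *Gtpbp2*-/- they held 8.3%, 6.298% and 2.0%, which overlapped with B6J, as those of *Psat1* did in both mutants. How many of all genes moved either way was not counted. Reads of transcripts that share exons are divided by estimation, so these shares are less certain than the gene sums.

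Other genes of the pathway were taken from lists, the first being the remaining folate and methyl cycle. *Mat2b*, a subunit of methionine adenosyltransferase, fell in RNA by 0.42 in *Gtpbp1*-/- (SE 0.0701, edgeR adjusted p = 0.00138) and by 0.43 in *Gtpbp2*-/- (SE 0.0752, edgeR adjusted p = 0.00555) on the log2 scale. Both calls of *Mat2b* were lost with limma on TPM (adjusted p = 0.0596 and 0.0665, in ranges of 3.36e-06 to 0.0596 and 1.81e-05 to 0.0665). *Mtrr*, which reactivates methionine synthase, was called in *Gtpbp1*-/- (0.41, SE 0.112, edgeR adjusted p = 0.0285) and not in *Gtpbp2*-/- (0.28, SE 0.126, edgeR adjusted p = 0.219), and edgeR did not call it between the mutants. Its call was lost in 8 of 16 alternatives, among them without *Gtpbp1*-/- replicate 2 (edgeR adjusted p = 0.0775), *Gtpbp1*-/- replicate 3 (0.117), B6J replicate 2 (0.0724) or B6J replicate 3 (0.0592), in a range of 0.00923 to 0.145.

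Of 10 carriers of folate and serine, 2 were called higher and 1 lower in RNA in each mutant, where 5.90% (*Gtpbp1*-/-) and 3.61% (*Gtpbp2*-/-) of all genes tested were higher and 7.93% and 5.02% lower. *Slc1a4*, a carrier of neutral amino acids including serine, rose by a log2 fold change of 1.71 (SE 0.0920, edgeR adjusted p = 1.73e-07) in *Gtpbp1*-/- and 1.58 (SE 0.113, edgeR adjusted p = 1.98e-05) in *Gtpbp2*-/-, from 17.3 ± 1.63 TPM in B6J to 63.1 ± 6.72 and 57.5 ± 8.57 (SD, n = 3). Its footprints rose by 1.33 (SE 0.232, edgeR adjusted p = 0.0197) in *Gtpbp1*-/- and 0.76 (SE 0.190, edgeR adjusted p = 0.0442) in *Gtpbp2*-/-. The footprint call of *Slc1a4* in *Gtpbp1*-/- was lost without B6J replicate 1 (edgeR adjusted p = 0.154) or 2 (0.0819), in a range of 3.35e-05 to 0.154. The call in *Gtpbp2*-/- was lost with all 9 libraries in one model (edgeR adjusted p = 0.092) and without *Gtpbp2*-/- replicate 1 (0.151), 2 (0.0708) or 3 (0.132) or B6J replicate 1 (0.167) or 2 (0.11), in a range of 0.012 to 0.167. *Sfxn1*, the mitochondrial serine carrier, rose by 0.55 (SE 0.0814, edgeR adjusted p = 0.000615) and 0.43 (SE 0.0901, edgeR adjusted p = 0.0143) in RNA. For *Sfxn1* the call in *Gtpbp2*-/- was lost with sex as a term (edgeR adjusted p = 0.0588) and without *Gtpbp2*-/- replicate 2 (0.0653) or 3 (0.0541) or B6J replicate 1 (0.0542) or 2 (0.0546), in a range of 0.000627 to 0.0653. *Slc7a10*, a glial carrier that exchanges small neutral amino acids, fell by 0.35 (SE 0.0816, edgeR adjusted p = 0.0121) and 0.48 (SE 0.106, edgeR adjusted p = 0.0179) on the log2 scale. Its calls were lost with limma on TPM (adjusted p = 0.448 and 0.248) and, by edgeR, with the length offset (0.13 and 0.0803) in both mutants, and with sex as a term in *Gtpbp2*-/- (0.0552). They were also lost without B6J replicate 1 in *Gtpbp1*-/- (edgeR adjusted p = 0.0572, range 0.00137 to 0.448) and in *Gtpbp2*-/- (0.085, range 0.000537 to 0.248), and in *Gtpbp2*-/- also without B6J replicate 2 (0.0564). *Slc1a5*, a related carrier, was not called in RNA, at 0.67 (SE 0.312, edgeR adjusted p = 0.191) and 0.97 (SE 0.317, edgeR adjusted p = 0.0867). *Slc1a5* was called in *Gtpbp2*-/- with DESeq2 (adjusted p = 0.0274), and by edgeR with no filter on low counts (0.0187), with all 9 libraries in one model (0.0446) and with the length offset (0.0274), in a range of 0.0187 to 0.286.

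Of 9 genes of glycine cleavage and choline oxidation, none was called higher by edgeR in RNA and 1 was called lower in each mutant, beside the same shares of all genes. This was *Gldc*, the decarboxylase of glycine cleavage, which fell by 0.65 (SE 0.102, edgeR adjusted p = 0.00091) in *Gtpbp1*-/- and by 0.78 (SE 0.128, edgeR adjusted p = 0.00386) in *Gtpbp2*-/- on the log2 scale. With limma on TPM the RNA call of *Gldc* was lost in both mutants (adjusted p = 0.0695 and 0.0884, in ranges of 2.95e-08 to 0.0695 and 8.58e-08 to 0.0884). *Gldc* footprints were at -0.30 (SE 0.258, edgeR adjusted p = 0.691) and 0.09 (SE 0.253, edgeR adjusted p = 0.895), the latter being -0.10 without *Gtpbp2*-/- replicate 1 and -0.15 without B6J replicate 2. *Gcsh*, the carrier protein of that system, named after its values were seen, was the 1 gene of the list called higher in footprints of *Gtpbp2*-/- (0.76, SE 0.193, edgeR adjusted p = 0.0479). The call of *Gcsh* was lost in 8 of 12 alternatives, with a replicate block (edgeR adjusted p = 0.0501), with all 9 libraries in one model (0.0737) and without any single library (0.238, 0.105 and 0.0759 without *Gtpbp2*-/- replicates 1, 2 and 3, and 0.135, 0.114 and 0.0585 without B6J replicates 1, 2 and 3), in a range of 0.0211 to 0.238. In RNA, *Dld* (0.13 in *Gtpbp1*-/- and 0.0096 in *Gtpbp2*-/-), *Aldh7a1* (-0.22 in both) and *Pipox* (-0.61 and -0.49) were not called. *Dld* in *Gtpbp2*-/- was -0.03 without *Gtpbp2*-/- replicate 2, -0.03 without *Gtpbp2*-/- replicate 3, -0.02 without B6J replicate 1 and -0.02 without B6J replicate 2. *Aldh7a1* was called in *Gtpbp1*-/- with DESeq2 (adjusted p = 0.0369) and, by edgeR, with all 9 libraries in one model (0.0468), in a range of 0.0369 to 0.959.

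Of 8 genes of purine synthesis, which uses formyl-folate, edgeR called 0 in RNA or footprints of either mutant. At an unadjusted p under 0.05 there were 2, *Atic* and *Ppat* in RNA of *Gtpbp1*-/-, where 6464 of the 24577 genes tested were under it and 13.8% were called. The RNA log2 fold changes ranged from -0.17 to 0.32 in *Gtpbp1*-/- and from -0.13 to 0.24 in *Gtpbp2*-/-. *Ppat*, the first enzyme of the route, had 0.28 (SE 0.101, edgeR adjusted p = 0.0914) and 0.24 (SE 0.117, edgeR adjusted p = 0.249), and *Atic*, the last, had 0.32 (SE 0.110, edgeR adjusted p = 0.0749) and 0.23 (SE 0.142, edgeR adjusted p = 0.393). *Atic* was called in *Gtpbp1*-/- without *Gtpbp1*-/- replicate 1 (edgeR adjusted p = 0.046), with DESeq2 (0.0475) and with upper quartile normalization (0.0393), in a range of 0.0393 to 0.377. *Ppat* was called in *Gtpbp1*-/- with upper quartile normalization (edgeR adjusted p = 0.0452, range 0.0452 to 0.269). *Adsl* lay at -0.17 and -0.13.

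Of 12 genes of serine use and glycolysis, 6 were called lower in RNA in each mutant and none higher, against 7.93% of all genes tested lower in *Gtpbp1*-/- and 5.02% in *Gtpbp2*-/-. The 6 were all genes of glycolysis, and no gene of serine use on the list was called. *Eno2*, the neuronal enolase, fell by 1.03 (SE 0.0994, edgeR adjusted p = 1.96e-05) in *Gtpbp1*-/- and by 0.85 (SE 0.109, edgeR adjusted p = 0.000836) in *Gtpbp2*-/- on the log2 scale. *Pgam1*, which takes phosphoglycerate further down glycolysis, fell by 0.64 (SE 0.0759, edgeR adjusted p = 9.58e-05) and by 0.53 (SE 0.0773, edgeR adjusted p = 0.00187), and *Eno1*, the widely expressed enolase, fell by 0.57 (SE 0.0819, edgeR adjusted p = 0.000477) and by 0.63 (SE 0.0903, edgeR adjusted p = 0.00162). *Gapdh* (-0.42 in both), *Pgk1* (-0.34 and -0.41) and *Pkm* (-0.35 and -0.38) made up the 6. Of these 3, *Gapdh* was lost in *Gtpbp2*-/- without B6J replicate 1 (edgeR adjusted p = 0.0541, range 3.53e-07 to 0.0968), and *Pkm* was lost in *Gtpbp1*-/- with a replicate block (edgeR adjusted p = 0.0607) and without *Gtpbp1*-/- replicate 2 (edgeR adjusted p = 0.0665, range 7.16e-06 to 0.0913) and in *Gtpbp2*-/- without B6J replicate 1 (0.0563, range 9.06e-07 to 0.121). *Pgk1* was lost in *Gtpbp1*-/- with the replicate block (edgeR adjusted p = 0.0661, range 0.000431 to 0.186). With limma on TPM, *Gapdh*, *Pgk1* and *Pkm* were called in neither mutant. In footprints, *Eno2* was called lower in *Gtpbp2*-/- (-0.69, SE 0.153, edgeR adjusted p = 0.0238) and not in *Gtpbp1*-/- (-0.90, SE 0.201, edgeR adjusted p = 0.0638). The call in *Gtpbp2*-/- was lost with all 9 libraries in one model (edgeR adjusted p = 0.059) and without *Gtpbp2*-/- replicate 1 (0.138), *Gtpbp2*-/- replicate 2 (0.136) or B6J replicate 1 (0.0617), in a range of 0.000403 to 0.138. *Pgam1* (-0.22 and -0.20) and *Eno1* (-0.27 and -0.40) were not called in footprints. *Eno2* footprints in *Gtpbp1*-/- passed with DESeq2 (adjusted p = 0.00251) and, with edgeR, with no filter on low counts (0.0391) and with all 9 libraries in one model (0.0195), in a range of 0.00251 to 0.242.

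Cell type markers moved beside these results, while of all genes tested 5.90% were called higher and 7.93% lower in *Gtpbp1*-/-, and 3.61% and 5.02% in *Gtpbp2*-/-. Granule neuron markers summed to 2863, 2815 and 3236 TPM in *Gtpbp1*-/- and 2989, 3234 and 2763 in *Gtpbp2*-/-, against 4243, 4273 and 4293 in B6J, with 10 of 12 genes called lower in *Gtpbp1*-/- and 9 of 12 in *Gtpbp2*-/- and *Cbln1* the most abundant. Astrocyte and Bergmann glia markers summed to 3127, 3173 and 2721 TPM in B6J, 3128, 2851 and 3044 in *Gtpbp1*-/- and 2719, 3050 and 2781 in *Gtpbp2*-/-, with *Slc1a3* the most abundant. These sums overlapped, with 1 of 14 genes called higher and 4 lower in *Gtpbp1*-/-, and 1 higher and 5 lower in *Gtpbp2*-/-. Microglia markers summed to 61.1, 63.0 and 75.1 TPM in B6J, 167, 136 and 139 in *Gtpbp1*-/- and 136, 147 and 149 in *Gtpbp2*-/-, with 5 and 4 of 7 genes called higher and *C1qa* the most abundant. Markers of endothelial and mural cells summed to 148, 147 and 158 TPM in B6J, 206, 259.8 and 265 in *Gtpbp1*-/- and 176, 296 and 307 in *Gtpbp2*-/-, with 5 and 2 of 7 genes called higher and *Rgs5* the most abundant. None of the markers on these lists was at 0, and the part of a change of cell makeup in the members' values was not tested.

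Oligodendrocyte markers summed to 9988, 8647 and 9927 TPM in B6J, 8191, 8293 and 7106 in *Gtpbp1*-/- and 11880, 8917 and 9793 in *Gtpbp2*-/-, with 7 of 8 genes called lower in *Gtpbp1*-/- and 0 of 8 called by edgeR, or at an unadjusted p under 0.05, in *Gtpbp2*-/-, and *Mbp* the most abundant. Choroid plexus markers, of which *Ttr* was the most abundant, depended on the library, at 3346, 2208 and 473 TPM in B6J, 3738, 2789 and 804 in *Gtpbp1*-/- and 149.7, 2273 and 1486 in *Gtpbp2*-/-. Genes of bone and muscle summed to 275, 669.8 and 892 CPM in B6J footprints, 1585, 1381 and 2655 in *Gtpbp1*-/- and 606, 975 and 475 in *Gtpbp2*-/-, with *Col1a1* the most abundant, so *Gtpbp1*-/- was above the other genotypes. In RNA the same list overlapped, at 41.5, 40.2 and 26.1 TPM in B6J, 36.6, 54.5 and 41.7 in *Gtpbp1*-/- and 28.7, 50.3 and 39.9 in *Gtpbp2*-/-. Markers of dividing cells summed to 86.1, 86.0 and 79.95 TPM in B6J, 109.7, 116 and 122 in *Gtpbp1*-/- and 92.6, 120.2 and 117 in *Gtpbp2*-/-, higher in every mutant library, with 1 of 7 genes called higher in *Gtpbp1*-/- and 0 in *Gtpbp2*-/- by edgeR (4 at an unadjusted p under 0.05), and *Pcna* the most abundant. Interneuron markers summed to 1761, 1756 and 1591 TPM in B6J, 1697, 1440 and 1479 in *Gtpbp1*-/- and 1465, 1405 and 1200 in *Gtpbp2*-/-, with 4 of 8 genes called lower in each mutant and *Pvalb* the most abundant. Purkinje cell markers summed to 6444, 5384 and 6924 TPM in *Gtpbp1*-/- and 5733, 5955 and 4900 in *Gtpbp2*-/-, overlapping with B6J, with 2 and 3 of 8 genes called lower and *Pcp4* the most abundant. Footprints of marker genes did not always follow RNA. Purkinje cell markers had 0 of 8 log2 fold changes above 0 in RNA and 8 of 8 in footprints, in both mutants. Astrocyte and Bergmann glia markers had 4 of 14 in RNA of each mutant, and 13 (*Gtpbp1*-/-) and 8 (*Gtpbp2*-/-) in footprints. Oligodendrocyte markers in *Gtpbp1*-/- had 0 of 8 in RNA and 6 of 8 in footprints. None of these genes was called in footprints by edgeR. Interneuron markers summed to 3622, 2399 and 4333 CPM in B6J, 3235, 4148 and 2686 in *Gtpbp1*-/- and 4559, 4580 and 4951 in *Gtpbp2*-/-. Most of the higher sum in *Gtpbp2*-/- came from *Pvalb*, at 1432 CPM on average in B6J and 2440 in *Gtpbp2*-/-, and 4 of 8 genes were above 0 in log2 fold change, with 0 called by edgeR (1 at an unadjusted p under 0.05). Granule neuron markers summed to 6025, 9027 and 6531 CPM in B6J, 4791, 3625 and 5714 in *Gtpbp1*-/- and 3685, 3477 and 3145 in *Gtpbp2*-/-, lower in every mutant library, with 0 of 12 genes called lower by edgeR in *Gtpbp1*-/- (9 at an unadjusted p under 0.05) and 9 of 12 in *Gtpbp2*-/-. Of all genes tested in footprints, 0.172% were called lower in *Gtpbp1*-/- and 1.67% in *Gtpbp2*-/-, and 0.573% and 1.28% higher. Microglia markers summed to 151.6, 177 and 148 CPM in B6J, 382, 221 and 432 in *Gtpbp1*-/- and 223, 226 and 303 in *Gtpbp2*-/-, higher in every mutant library. Endothelial and mural markers summed to 435, 301 and 508 CPM in B6J, 1167, 747 and 585 in *Gtpbp1*-/- and 911, 815 and 717 in *Gtpbp2*-/-, also higher in every mutant library, with 1 of 7 genes called higher in *Gtpbp1*-/- and 3 of 7 in *Gtpbp2*-/-. Choroid plexus footprints depended on the library as their RNA did, from 74.3 to 13760 CPM. None of these markers was at 0, and the part of these cells in the members' values was not tested.

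*Shmt2* was used to rank other genes by likeness over the 9 RNA libraries. Among 16277 genes with a mean of at least 1 CPM, the 5 genes outside the list with the highest Pearson r of log2 CPM were *Chac1* (r = 0.998), *Yars* (0.997), *Sesn2* (0.997), *Herpud1* (0.997) and *Slc7a3* (0.997). For *Shmt2* the B6J libraries stand apart and the mutants overlap, so r mostly gives the step between B6J and the mutants. *Slc7a3* was 4.41, 4.85 and 3.39 TPM in B6J, 114, 131 and 143 in *Gtpbp1*-/- and 109, 149.7 and 139 in *Gtpbp2*-/-, and *Sesn2* was 8.94, 9.34 and 7.5 in B6J, 69.3, 71.9 and 86.8 in *Gtpbp1*-/- and 57.2, 78.0 and 69.2 in *Gtpbp2*-/-. Both were far above B6J in every mutant library, as *Shmt2* was. Of the members, *Mthfd2* ranked 46th (r = 0.987), *Aldh1l2* 52nd (0.985), *Psph* 61st (0.984), *Phgdh* 91st (0.976), *Psat1* 159th (0.964) and *Mthfd1l* 383rd (0.929). *Shmt1* (r = 0.609), *Mthfd1* (0.251) and *Aldh1l1* (-0.812) were further from *Shmt2*.

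The tRNA encoded by *n-Tr20* reads AGA codons, so these were counted in the most abundant coding transcript of each member. *Aldh1l2* had 21 AGA codons among its 40 arginine codons, or 22.8 per 1000 codons, at percentile 88.1 of 15930 genes. *Mthfd1* had 14 of 45 (15.0 per 1000 codons) and *Mthfd1l* 14 of 50 (14.3 per 1000). The other 7 members had 2 to 5 AGA codons, and each was below the median of all genes, from *Shmt1* at 4.18 per 1000 codons to *Shmt2* at 9.92. *Aldh1l2* and its cytosolic counterpart *Aldh1l1* differed most within a pair, with 22.8 against 5.54 per 1000 codons. The positions of footprints on these codons were not analysed here.

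Promoters were examined because most members had more RNA in both mutants. The core of the C/EBP-ATF response element, TGATGNAA, was searched on both strands in the RefSeq promoter table (GRCm38.p6), from 250 bases before to 50 after the gene start. Of the 10 members, 9 were matched in this table and *Aldh1l2* was missing from it. None of the 9 held the motif in that window, against 4.51% of 27025 promoters. After this was seen, a wider window of 1000 bases before to 2000 bases after the start of the most abundant coding transcript was searched in the genome for the same 9 genes. It held the motif in 5 of 9 members, against 29.5% of 16520 genes. The narrower form TGATGCAA, also chosen after seeing the data, was in the wider window of 3 of 9 members, against 6.44% of genes. A form longer by a base, TGATGNAAT, was there in 1 of 9, against 7.94%, and TGATGCAAT in 0 of 9, against 1.35%. In the promoter table these 3 forms were in 0 of 9 members, against 1.03%, 1.08% and 0.222% of promoters. The motifs overlap, since each longer or narrower form lies within TGATGNAA matches.

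The matches of the wider window are printed for the genes that hold them, *Phgdh*, *Psat1*, *Shmt2*, *Mthfd2* and *Mthfd1l*. These are 5 of the 7 members called higher in RNA, while 29.5% of 16520 genes held the motif in this window. A link between the motif and the RNA change was not tested. Each is shown on the strand of its gene, 5′ to 3′, with 11 bases on either side and the match in capitals. All lay in intron 1, at chr3:98339208-98339237 for *Phgdh*, chr19:15923825-15923854 for *Psat1*, chr10:127521946-127521975 for *Shmt2*, chr6:83317169-83317198 for *Mthfd2* (GRCm38, minus strand) and chr10:3973748-3973777 for *Mthfd1l* (plus strand).
Phgdh: cgccttttgtcTGATGCAAgaccttggcgc
Psat1: tactattgctgTGATGAAAcactgtggcca
Shmt2: agctatggagaTGATGCAAccgagcctcag
Mthfd2: ttgctgcagtcTGATGAAAtctgtgagccg
Mthfd1l: gcctccggctcTGATGCAAccgcgccgggc
*Phgdh*, *Shmt2* and *Mthfd1l* held the form TGATGCAA, and *Psat1* and *Mthfd2* held TGATGAAA. *Shmt2* had another match close by, in the reverse direction, in the stretch chr10:127521924-127521953. *Psph*, called higher in RNA, and *Shmt1*, *Mthfd1* and *Aldh1l1* had no match in this window. *Aldh1l2*, also called higher in RNA, was not searched. A match is a run of letters and is no measure of binding.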

How the data were processed

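The authors deposited an estimated count and a TPM for each transcript of the RNA libraries, made with kallisto 0.42.4 according to the submitters' processing notes. The deposited count for each gene of the footprint libraries was of reads in coding sequence, made with featureCounts after Bowtie2 2.2.3 and HISAT2 2.1.0 according to those notes. Transcripts were summed to genes, and the estimated counts were rounded. Of the RNA genes, 54723 were matched to Gencode M21, and 22488 footprint genes had a coding length. Members and lists were chosen with earlier results of these data known. Other pathway genes were named where called in both mutants with an absolute log2 fold change of at least 0.5, or for the smallest adjusted p of the rest. Tests used edgeR 4.0.16 quasi-likelihood with TMM on genes with a count of at least 5 (for TE, 10) in at least 3 libraries. Each fit was repeated with other choices: the tool (DESeq2 1.42.0, or limma 3.58.1 on log2(TPM + 0.5)), the scaling (upper quartile, or effective lengths as an offset), the filter (filterByExpr, or none), the model (all 9 libraries together, sex as a term, or replicate as a block), the transcripts (coding ones alone) and the libraries (each left out). For TE these were DESeq2, TMM within each assay, all 18 libraries, a replicate block, filterByExpr and each library left out. The motif window was widened after the planned one gave no match. R 4.3.3, Python 3.11.15, numpy 2.4.6, pandas 2.3.3, matplotlib 3.10.9 and pysam 0.24.0 were used.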

Additional observations from a re-analysis of the deposited data

How the results depend on the processing

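The number of genes called moved by more than 1.5 times under these alternatives, and the cause was not tested. With DESeq2 it was 3409 in RNA of *Gtpbp2*-/- (2146 with edgeR), 406 in footprints of *Gtpbp1*-/- (104) and 655 in footprints of *Gtpbp2*-/- (406). Between the mutants, DESeq2 called 46 genes in RNA (15) and 100 in footprints (0), with 1 member, *Aldh1l2*, and in TE it called 58 in *Gtpbp1*-/- (0) and 160 in *Gtpbp2*-/- (1). With limma on TPM, RNA gave 2071 in *Gtpbp1*-/- (3398 with edgeR) and 845 in *Gtpbp2*-/-, and with the length offset 2234 and 1358. With sex as a term, RNA gave 1071 in *Gtpbp2*-/- and 9 between the mutants. With protein-coding transcripts alone, RNA gave 5 between the mutants. With no filter on low counts, 36 genes were called in RNA between the mutants, 213 in footprints of *Gtpbp1*-/- and 15 in footprints between the mutants. With all libraries of an assay in one model, footprints gave 201 in *Gtpbp1*-/-, 268 in *Gtpbp2*-/- and 1 between the mutants, and with all 18 libraries TE gave 5 in *Gtpbp2*-/-. Upper quartile normalization gave 3 genes in footprints between the mutants, and filterByExpr 2 in TE of *Gtpbp2*-/-.

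The labels do not say whether libraries of the same replicate number belong together, and deviations among 3 libraries per group cannot settle it. The correlation of deviations between libraries of the same number ran from -0.0452 to 0.0894 in RNA and from -0.26 to 0.0975 in footprints. Between RNA and footprints it ran from -0.107 to 0.109. Some samples correlated best with their own number and others did not. With a block for the number, 2237 genes were called in RNA of *Gtpbp1*-/-, 2130 in RNA of *Gtpbp2*-/-, 44 in footprints of *Gtpbp1*-/- (3 members in place of 5), 510 in footprints of *Gtpbp2*-/-, 15 in RNA and 1 in footprints between the mutants, and 0 in TE of *Gtpbp2*-/-.

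With single libraries left out, the number of genes called ranged from 1890 to 3798 in RNA of *Gtpbp1*-/- and from 953 to 2357 in RNA of *Gtpbp2*-/-. It ranged from 22 to 186 in footprints of *Gtpbp1*-/-, from 106 to 619 in footprints of *Gtpbp2*-/-, from 9 to 17 in RNA between the mutants and from 0 to 33 in footprints between them. In TE it ranged from 0 to 18 in *Gtpbp1*-/- and from 0 to 42 in *Gtpbp2*-/-. Members called in footprints ranged from 2 to 6 in *Gtpbp1*-/-, from 4 to 7 in *Gtpbp2*-/- and from 0 to 1 between the mutants.

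The ratio of mitochondrial to cytosolic enzymes was also taken from CPM, which has no length in it. In RNA this gave 0.638 in B6J, 2.90 in *Gtpbp1*-/- and 2.87 in *Gtpbp2*-/-, and in footprints 0.488 in B6J, 1.41 in *Gtpbp1*-/- and 1.57 in *Gtpbp2*-/-, so it was still higher in the mutants.

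Log2 fold changes that changed sign were not called. *Slc1a5* RNA in *Gtpbp1*-/- was -0.177 with protein-coding transcripts alone. *Dld* RNA was -0.0435 in *Gtpbp1*-/- and -0.0387 in *Gtpbp2*-/- with the length offset and, in *Gtpbp2*-/-, -0.0208 with sex as a term, and it ranged from -0.0346 to 0.0874 with single libraries left out of *Gtpbp2*-/-. *Aldh1l1* footprints in *Gtpbp2*-/- were -0.00671 with the block and ranged from -0.187 to 0.139 with single libraries left out. Over the same removals, *Mthfd1* ranged from -0.0626 to 0.125 in RNA of *Gtpbp1*-/-, from -0.0572 to 0.131 in RNA of *Gtpbp2*-/- and from -0.0338 to 0.179 in footprints of *Gtpbp1*-/-, *Shmt1* footprints in *Gtpbp1*-/- from -0.0518 to 0.652 and *Gldc* footprints in *Gtpbp2*-/- from -0.147 to 0.322. The cause was not tested.

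Single members were rerun under the alternatives against B6J in RNA and footprints, *Shmt2* and *Aldh1l2* also in TE, and *Mthfd1l* and *Aldh1l2* also in footprints between the mutants. Of these values, 572 kept direction and side of the threshold, 42 lost the call, 6 gained it and 8 changed sign. For other named genes these numbers were 702, 59, 13 and 10. Footprint counts were small for *Shmt1*, at 17 to 77 per library, and for *Aldh1l2*, at 24 to 47 in B6J. Without a library, a group holds 2 libraries, which were assumed to vary like the rest.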
